A study of Mus musculus with 6 samples.

Results

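Tuft cells are rare chemosensory cells of the intestinal epithelium. They depend on the transcription factor POU2F3, detect luminal signals through a pathway shared with taste cells that ends in the cation channel TRPM5, and answer with the cytokine IL-25, leukotrienes and prostaglandins. IL-25 acts on group 2 innate lymphoid cells, whose IL-13 in turn favours the formation of more tuft and goblet cells. The following concerns 10 genes that mark tuft cells, Dclk1, Trpm5, Pou2f3, Il25, Alox5, Ptgs1, Gfi1b, Avil, Sh2d6 and Hpgds. They were picked by name, with earlier results of these data known, and all 10 were among the 19616 genes measured.

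RNA was sequenced from jejunal intestinal epithelial cells (IEC) enriched by EDTA, which loosens the epithelium from the underlying mucosa. The control group was 3 wildtype mice (C1, C3 and C3-3) and the Hdac1/2-deleted group was 3 villin-Cre Hdac1-/-; Hdac2-/- mice (H1, H5 and H9), all aged 3 months, with 1 library per mouse. The villin promoter drives Cre in epithelial cells, so blood and stromal cells in the preparation keep both histone deacetylase genes, and the mice had a mixed C57BL/6J, 129SV and CD1 background. Expression is given as CPM, in which counts are put on a common library size by the library total and edgeR's TMM factor.

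Libraries held 58017009 to 65902344 counts in control mice and 36111035 to 65230566 in deleted mice, so that 3 counts in a library correspond to 0.0405 to 0.0790 CPM. This floor covers counting error only. Hdac1 was expressed at 40.8 ± 7.33 CPM (SD, n = 3) in control IEC and at 3.77 ± 1.16 CPM in deleted IEC, with a log2 fold change of -3.43. Hdac2 was at 27.7 ± 4.72 and 24.5 ± 2.70 CPM, with overlapping groups and an adjusted p = 0.44 in edgeR's quasi-likelihood test. Gene counts also include reads outside any deleted exons, and the exons removed are not given in the sources used here. Epithelial markers were abundant in every library, and their sum over 7 genes was 12551, 12820 and 14423 CPM in control mice and 9881, 10752 and 12241 CPM in deleted mice, so every deleted mouse was below every control. Of the 7, Epcam (log2 fold change -0.62, adjusted p = 0.017) and Krt20 (-0.57, adjusted p = 0.032) were lower by less than 2-fold. The part of this difference in the tuft marker values was not tested. Reads on Y-linked genes numbered 3082 in control C3 and 1 to 13 in the other libraries. The labels give no sex, but such reads point to C3 as the only male, so sex was not balanced between the groups. Its part in the values was not tested, and calls lost without C3 are named below.

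Promoter sequences for 8 of the 10 genes stand in the RefSeq table for GRCm38.p6, and they were searched on both strands for the octamer ATGCAAAT, the motif recognised by POU factors such as POU2F3, from 250 bases before to 50 bases after each start. The site found before the RefSeq start of Hpgds is shown first, because it was the only match among the 8 genes, with the octamer in capitals. The 250 bases before the start follow for Trpm5, which rose, and for Dclk1 and Avil, which fell, as a view of promoters without the octamer. Dclk1 has another listed start within the gene, whose promoter also lacked the octamer and is not shown. Which start is used in these cells was not tested. All are written 5′ to 3′ on the gene's strand.
Hpgds, chr6:65144886-65144915, minus strand: ctttactctttATGCAAATacgttggacta
Trpm5, chr7:143094643-143094892, minus strand: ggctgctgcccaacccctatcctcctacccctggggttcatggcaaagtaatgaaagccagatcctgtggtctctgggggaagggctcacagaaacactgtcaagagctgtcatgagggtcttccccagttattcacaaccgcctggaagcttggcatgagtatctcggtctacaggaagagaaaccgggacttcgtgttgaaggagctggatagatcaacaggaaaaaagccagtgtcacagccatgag
Dclk1, chr3:55242114-55242363, plus strand: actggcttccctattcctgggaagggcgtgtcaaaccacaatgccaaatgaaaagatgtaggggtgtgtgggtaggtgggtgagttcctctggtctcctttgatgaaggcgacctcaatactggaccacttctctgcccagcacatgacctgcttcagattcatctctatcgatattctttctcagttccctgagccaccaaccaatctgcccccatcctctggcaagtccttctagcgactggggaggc
Avil, chr10:127000459-127000708, plus strand: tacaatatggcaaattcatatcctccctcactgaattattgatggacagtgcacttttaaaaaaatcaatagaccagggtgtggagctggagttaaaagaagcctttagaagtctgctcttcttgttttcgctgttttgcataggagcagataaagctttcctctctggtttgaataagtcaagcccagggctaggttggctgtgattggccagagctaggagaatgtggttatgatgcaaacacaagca
The octamer of Hpgds begins 174 bases before the RefSeq start, at a place that the GENCODE gene model already counts as its first exon. It was found in 570 of 32851 promoters in the table (1.74%), which are promoters of 532 of 27025 genes (1.97%), and in 6 of the 49 genes of a wider tuft cell list that have a promoter there, Sucnr1, Hpgds, Il4ra, 1810046K07Rik, Kctd12 and Itpr3. A match of these letters is a description of sequence and not a measured binding site.

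Of the 10 markers, 9 passed the filter on low counts and were tested. In Hdac1/2-deleted IEC 6 were decreased (Dclk1, Sh2d6, Avil, Alox5, Gfi1b and Pou2f3) and 2 were increased (Trpm5 and Hpgds), where a call needs both an adjusted p up to 0.05 and a 2-fold difference or more. Over all 15618 genes tested, 12.7% were decreased and 12.4% were increased. In 7 of the 9 every deleted mouse lay below every control mouse, which held for 26.6% of all genes, and in the other two every deleted mouse lay above every control mouse, which held for 26.7%. The median log2 fold change of the 9 was -2.29, against -0.0081 over all genes. In bulk RNA, fewer tuft cells and less RNA of these genes per cell cannot be told apart.

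**Figure D1:**
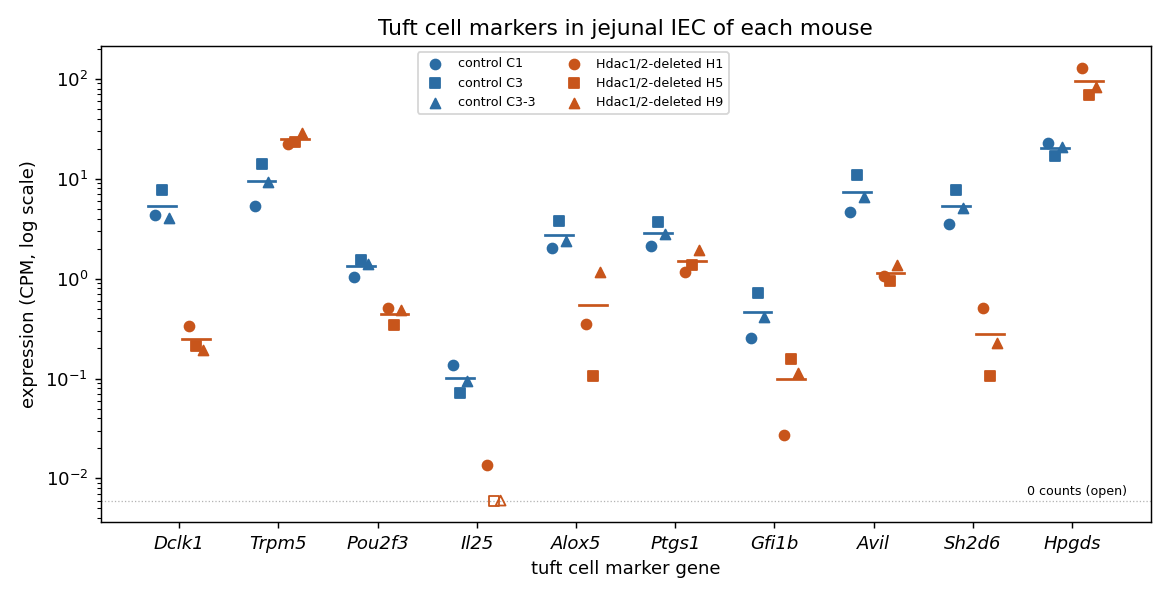
Expression of the 10 tuft cell markers in each mouse, in CPM on a log axis, with control mice in blue, Hdac1/2-deleted mice in orange and a line at each group's mean. Trpm5 and Hpgds are higher in every deleted mouse, and the other 8 genes are lower in every deleted mouse. Open symbols stand for 0 counts.

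Pou2f3, without which tuft cells do not form, lies on chromosome 9 from 43123939 to 43210369 on the minus strand (positions here and below are those of GENCODE M21 on GRCm38). It was at 1.04, 1.53 and 1.41 CPM in control C1, C3 and C3-3, and at 0.513, 0.342 and 0.488 CPM in deleted H1, H5 and H9. All 3 deleted mice were low and close to each other. Its log2 fold change was -1.55 (standard error, SE, 0.36, adjusted p = 0.0080). This and every adjusted p below comes from the quasi-likelihood test of edgeR, with p-values adjusted after Benjamini and Hochberg over all genes.

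Gfi1b encodes a zinc-finger repressor known from blood precursors, megakaryocytes and tuft cells, and lies on chromosome 2 from 28609450 to 28621982. It was at 0.257, 0.720 and 0.414 CPM in control mice and at 0.0270, 0.158 and 0.114 CPM in deleted mice. The groups did not overlap, and the log2 fold change was -2.29 (SE 0.67, adjusted p = 0.023). These are low levels, with 17 to 40 counts per control library and 2 to 7 per deleted library, and the gene passed the filter through the control libraries, 3 of which exceeded its limit against 1 deleted library. The call was lost without C3 (adjusted p = 0.089), without H1 (0.077) or without H9 (0.059), with log2 fold changes of -1.81, -1.77 and -2.47.

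Of the cytoskeletal markers, Dclk1 encodes a microtubule-associated kinase widely used to stain tuft cells and lies on chromosome 3 from 55242364 to 55539068. It was at 4.33, 7.78 and 4.03 CPM in control mice and at 0.337, 0.211 and 0.195 CPM in deleted mice. Every deleted mouse was well below the lowest control. Its log2 fold change was -4.40 (SE 0.41, adjusted p = 8.0e-05), the lowest fitted value of the 9 with all mice included.

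Avil, on chromosome 10 from 127000709 to 127020994, encodes advillin, an actin-binding protein of the villin family found in the tuft cell's apical bundle. It was at 4.70, 10.97 and 6.55 CPM in control mice and at 1.07, 0.948 and 1.38 CPM in deleted mice. Control C3 was highest and the deleted mice were within a narrow range. On the log2 scale the fold change was -2.70 (SE 0.36, adjusted p = 5.2e-04). Its exons overlap those of Tsfm on the opposite strand, a gene that differed by 0.83 on the log2 scale in the other direction, and whether the counting used strand is not given in the sources used here.

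Sh2d6, an SH2-domain adaptor gene on chromosome 6 from 72513641 to 72521707, was at 3.49, 7.63 and 5.04 CPM in control mice and at 0.513, 0.105 and 0.228 CPM in deleted mice. The groups were far apart, with 231 to 424 counts per control library and 4 to 38 per deleted library. This gave a log2 fold change of -4.17 (SE 0.55, adjusted p = 5.1e-04), which was -4.93 without H1. The order of Dclk1 and Sh2d6 turned without that mouse, where Dclk1 was at -4.72.

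Eicosanoid genes went in both directions. Alox5, on chromosome 6 from 116410077 to 116461178, encodes 5-lipoxygenase, which starts leukotriene synthesis in tuft cells and in myeloid cells. It was at 2.01, 3.78 and 2.41 CPM in control mice and at 0.351, 0.105 and 1.17 CPM in deleted mice. H9 stood above the other deleted mice but below every control. Its log2 fold change was -2.30 (SE 0.70, adjusted p = 0.030), and the call was lost without C3 (adjusted p = 0.081), C3-3 (0.054) or H1 (0.108). Without H9 the log2 fold change was -3.48.

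Ptgs1, on chromosome 2 from 36230426 to 36252272, encodes cyclooxygenase 1, which makes the precursor of the prostaglandins. It was at 2.10, 3.66 and 2.82 CPM in control mice and at 1.17, 1.37 and 1.93 CPM in deleted mice. All deleted mice were below all control mice, yet the log2 fold change of -0.94 (SE 0.33, adjusted p = 0.0503) did not pass. It passed without C1 (-1.11, adjusted p = 0.031) or without H9 (-1.16, adjusted p = 0.045).

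Hpgds encodes the hematopoietic prostaglandin D synthase, which turns that precursor into prostaglandin D2 and is also known from mast cells. It lies on chromosome 6 from 65117293 to 65144908 on the minus strand, and the octamer shown above lies before the RefSeq start, within the first bases of the GENCODE gene. It was at 23.1, 16.9 and 20.9 CPM in control mice and at 130, 69.4 and 83.4 CPM in deleted mice. H1 was the highest, and the lowest deleted mouse was far above the highest control. On the log2 scale the difference was 2.22 (SE 0.24, adjusted p = 2.1e-04), the largest increase among the 9.

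Trpm5, on chromosome 7 from 143069153 to 143094642, encodes the calcium-activated cation channel that depolarises tuft and taste cells. It was at 5.33, 14.1 and 9.18 CPM in control mice and at 22.4, 23.5 and 28.7 CPM in deleted mice. Deleted mice were close together and above all controls. The fitted log2 fold change was 1.38 (SE 0.32, adjusted p = 0.0088). Exons of Trpm5 overlap those of Tssc4 on the opposite strand, whose own log2 fold change was -0.14 (15.4 and 14.005 CPM), so reads counted without strand could not be told apart there.

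Il25, on chromosome 14 from 54932695 to 54935837, encodes the cytokine by which tuft cells call on innate lymphoid cells. It had 9, 4 and 5 counts in control mice and 1, 0 and 0 counts in deleted mice, too few to pass the filter. Over each group that is 18 counts against 1, a ratio of 0.0560 after scaling (exact 95% interval 0.00134 to 0.355, for counting error only). Fitted without the filter, the log2 fold change was -3.73 with an adjusted p = 0.023.

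The split between Trpm5 and Hpgds and the rest was present in each animal. The summed level of the other 8 markers was 18.1, 36.1 and 22.8 CPM in control mice and 3.996, 3.24 and 5.51 CPM in deleted mice. Trpm5 and Hpgds together made up 61.1%, 46.2% and 56.9% of the sum of all 10 in control mice, and 97.4%, 96.6% and 95.3% in deleted mice. These shares follow from the values above and add no independent test. Within a library, scaling cancels in a ratio of counts: Trpm5 had 1.23, 1.81 and 2.28 times the counts of Dclk1 in control mice and 66.4, 112 and 147 times in deleted mice. Likewise Hpgds had 10.99, 4.62 and 7.40 times the counts of Ptgs1 in control mice and 110, 50.7 and 43.1 times in deleted mice.

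Levels of different genes were compared as RPKM, the CPM divided by the summed exon length in kilobases. In control IEC Sh2d6 (3.19 ± 1.24 RPKM, SD, n = 3), Hpgds (3.16 ± 0.49), Avil (2.18 ± 0.95) and Trpm5 (1.49 ± 0.69) led, followed by Ptgs1, Alox5, Pou2f3, Dclk1, Gfi1b and Il25, and only Gfi1b and Il25 were neighbours whose ranges did not overlap. In deleted IEC Hpgds (14.7 ± 4.91 RPKM) and Trpm5 (3.89 ± 0.52) were separate from each other and from Ptgs1 (0.38 ± 0.10), next in order. Avil, Sh2d6, Pou2f3, Alox5, Gfi1b and Dclk1 followed with overlapping neighbours, and Il25 was last. Dclk1 has 15.3 kb of annotated exon over all its transcripts, so its RPKM is a low estimate where a shorter transcript is used. Exons of Dclk1 and Ptgs1 also overlap annotated transcripts of the opposite strand that have no row of their own in the table.

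A wider list of 60 tuft cell genes, which includes the 10, had 58 genes in the table and 52 tested. It too was chosen with earlier results of these data known. Its shares beside those of all genes are a description and not independent support. Of these, 26 were decreased (50%) and 7 were increased (13.5%), beside 12.7% and 12.4% of all genes. The median log2 fold change was -1.06. Among those called, Hmx2, Hmx3, Gm684, Sucnr1, Ffar3 and Bmx reached the filter's level in control libraries alone, and Vmn2r26 in deleted libraries alone. Such genes were tested only because they were high in that group, and their calls enter the counts with that limit. Without the 10 markers, 20 of 43 were decreased, 5 were increased and the median was -0.90. Many of the listed genes are also used by blood cells: 13 of 27 tested genes marked as such were decreased and 3 were increased, against 13 and 4 of the 25 not so marked. Some called genes had a higher control mean than Hpgds (20.3 CPM), the highest of the 10 markers. These were Krt18 (170 CPM), Itpr3 (145), Il4ra (57.2) and Plcg2 (24.3), all increased, and Cd24a (58.5) and Ptpn6 (39.0), both decreased. How much of their RNA came from tuft cells was not tested.

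**Figure D2:**
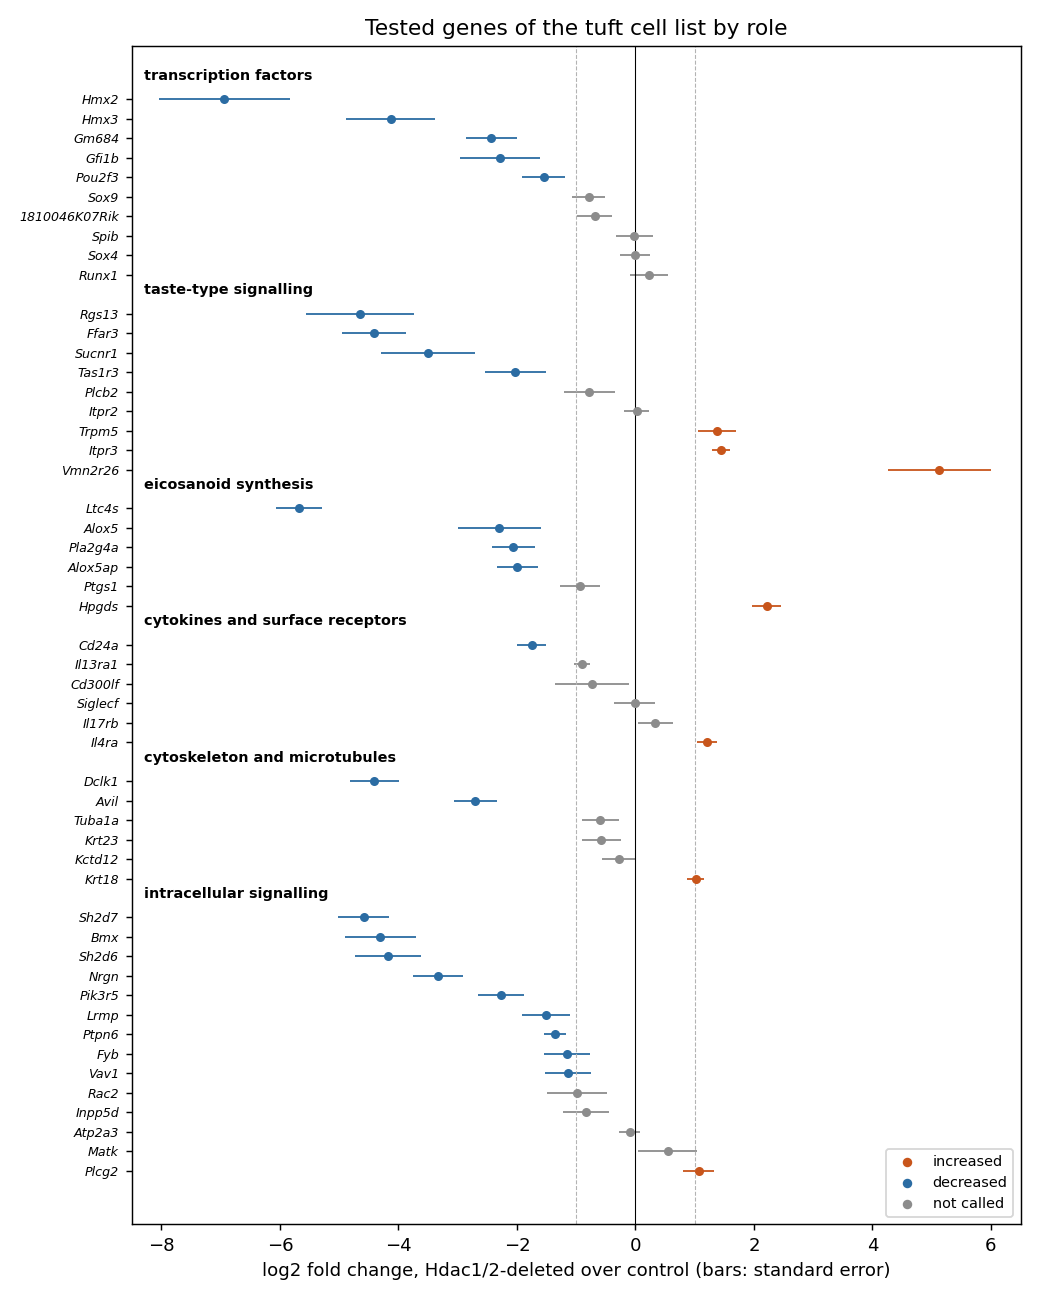
Log2 fold change (Hdac1/2-deleted over control) of 51 of the 52 tested genes of the tuft cell list, grouped by role, with bars for the standard error and dashed lines at a 2-fold change. Decreased genes (blue) are found in every role shown, whereas no transcription factor is increased (orange) and grey genes were not called.

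Among the transcription factors, 5 of 10 were decreased and 0 were increased by edgeR, beside 12.7% and 12.4% of all genes. DESeq2 also called 0 increased, and 0 were higher at an unadjusted p under 0.05 in edgeR's test. The homeobox genes Hmx2 and Hmx3, which mark tuft cells in the intestine, were both decreased. Both passed the filter through the control libraries alone. Hmx2 had 11, 22 and 12 counts in control mice and 0 in each deleted mouse, at least 14.9-fold lower against a floor of 3 counts over the group. Hmx3 had a log2 fold change of -4.13 (-4.77 without H5, -3.52 without H9) and Gm684, the gene of a POU2F3 coactivator, one of -2.43. Gm684 was at 0.556 and 0.0993 CPM. The more abundant 1810046K07Rik, listed in the same role, was at 11.1 ± 2.63 and 6.87 ± 2.72 CPM. Its groups overlapped and it was not called (-0.69, adjusted p = 0.098). Sox9, of crypt progenitors and tuft cells, was at 12.7 ± 1.87 and 7.34 ± 2.73 CPM (adjusted p = 0.052, and called decreased without H5). Spib, shared with lymphocytes and M cells, was at 5.88 ± 2.45 and 5.79 ± 0.82 CPM.

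In taste-type signalling 4 of 9 tested genes were decreased and 3 were increased, beside 12.7% and 12.4% of all genes. The succinate receptor Sucnr1 (-3.50), the sweet and umami receptor subunit Tas1r3 (-2.02), the short-chain fatty acid receptor Ffar3 (log2 fold change -4.41) and the G protein regulator Rgs13 (-4.65) were decreased on the log2 scale. Rgs13 had 11, 0 and 0 counts in deleted mice and its fitted value was -9.38 without H1, while Tas1r3 was at -2.77 without H1 and Sucnr1 at -4.43 without H9. Itpr3, the calcium release channel upstream of TRPM5, rose from 145 ± 20.03 to 393 ± 15.7 CPM (log2 fold change 1.44, adjusted p = 1.4e-04). The vomeronasal receptor Vmn2r26 had 2 counts over the control mice and 81 over the deleted mice, a ratio of 40.8 (exact 95% interval 10.9 to 343, counting error only). Plcb2, the phospholipase of the same cascade, was at 1.96 ± 0.76 and 1.14 ± 0.48 CPM (log2 fold change -0.78, adjusted p = 0.18). The G protein subunit genes Gnat3 and Gng13 were too low to test. Gnat3 had 2, 2 and 9 counts in control mice and 7, 0 and 0 counts in deleted mice. Gng13 had 3, 14 and 8 counts against 4, 0 and 2 counts.

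In eicosanoid synthesis 4 of 6 tested genes were decreased and Hpgds was the 1 increased, beside 12.7% and 12.4% of all genes. Ltc4s, which makes leukotriene C4, was at 10.46, 19.9 and 12.8 CPM in control mice and at 0.324, 0.158 and 0.325 CPM in deleted mice. Its log2 fold change of -5.68 (SE 0.39, adjusted p = 1.6e-05) was the largest decrease in this role. Alox5ap, which presents arachidonic acid to 5-lipoxygenase, and Pla2g4a, which releases that acid from membranes, had log2 fold changes of -1.99 and -2.06. The leukotriene genes Alox5, Alox5ap and Ltc4s were thus all decreased, Alox5 with a call lost without C3, C3-3 or H1. Hpgds was increased and stands alone for the prostaglandin D2 branch. Ptgs1, which makes its precursor, was lower in every deleted mouse but not called (log2 fold change -0.94, adjusted p = 0.0503).

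Of the intracellular signalling genes, 10 of 15 were decreased and Plcg2 was increased, beside 12.7% and 12.4% of all genes. Sh2d7, an adaptor gene related to Sh2d6, had a log2 fold change of -4.59, the kinase gene Bmx had -4.30 (-5.50 without H1), the calmodulin-binding Nrgn had -3.33 and the phosphoinositide 3-kinase subunit Pik3r5 had -2.27. Ptpn6 (-1.36), Lrmp (-1.505), Fyb (-1.15) and Vav1 (-1.14) were decreased by less. The calls of Fyb and Vav1 were lost without C3, C3-3, H1 or H5 and with scaling by library totals, and that of Lrmp without C3, H1 or H5. Plcg2 rose from 24.3 ± 8.89 to 51.0 ± 3.76 CPM (log2 fold change 1.07), a call lost without C1, where it was 0.81.

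Among cytokines and surface receptors, 1 of 6 tested genes was decreased and 1 increased, shares near the 12.7% and 12.4% over all genes. Cd24a fell from 58.5 ± 9.45 to 17.4 ± 5.26 CPM, and Il4ra, a receptor chain for IL-4 and IL-13, rose from 57.2 ± 7.36 to 132 ± 23.9 CPM (log2 fold change 1.21). Il13ra1, which pairs with it in the IL-13 receptor, was at 119 ± 14.7 and 63.8 ± 1.99 CPM, with every deleted mouse below every control, a difference under 2-fold (-0.90, adjusted p = 9.7e-04). Of the 6 cytoskeletal genes, Dclk1 and Avil were decreased and the epithelial keratin Krt18 was increased by 1.02 on the log2 scale, a call lost without C3 (0.98) or H5 (0.95), where it fell under 2-fold. Chat, the acetylcholine-forming enzyme of tuft cells, was untested, with 29 counts over the control mice and 1 over the deleted mice, a ratio of 0.0347 (exact 95% interval 8.5e-04 to 0.210).

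IL-25 belongs to the type 2 circuit, of which 6 of 11 listed genes were in the table and 4 were tested. Of these 4, 2 were increased, beside 12.4% of all genes, a count that covers only part of the circuit. The alarmin Il33 was at 9.30, 16.9 and 20.2 CPM in control mice and at 63.1, 57.3 and 49.5 CPM in deleted mice (log2 fold change 1.87, adjusted p = 8.4e-04). The growth factor Areg was at 5.57, 4.07 and 6.29 CPM against 20.9, 13.1 and 9.38 CPM (1.44, adjusted p = 0.0058). All deleted mice were above all control mice in both. Stat6, which carries the IL-4 and IL-13 signal, had a log2 fold change of 0.65 and stayed under 2-fold, and Gata3 was at 0.360 ± 0.217 and 0.194 ± 0.129 CPM. Il1rl1 and Retnlb were too low to test, with 3, 6 and 6 against 13, 4 and 27 counts and 1, 5 and 2 against 70, 36 and 3 counts. Il4, Il5, Il9, Il13 and Klrg1 were looked for and were not among the genes measured.

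Alox5, Ptgs1, Gfi1b and Hpgds are also expressed by blood cells, so marker lists of those cells were read beside them. The summed level of 5 leukocyte genes was 25.5, 84.2 and 70.2 CPM in control mice and 25.7, 35.3 and 56.0 CPM in deleted mice, with 0 of 5 called by edgeR or DESeq2 and 1 of 5 lower at an unadjusted p under 0.05. All 5 had a log2 fold change below 0, with a median of -0.51 against -0.0081 over all genes. The 10 mast cell genes summed to 17.7, 37.7 and 30.1 CPM in control mice and 20.2, 24.1 and 89.2 CPM in deleted mice, and the median log2 fold change of the 6 tested was 1.57. Cpa3 (1.71), Mcpt1 (1.67), Mcpt2 (1.77) and Mcpt4 (1.46) had values above 0 with overlapping groups and adjusted p-values of 0.15, 0.32, 0.25 and 0.27. Kit, which held 15.2 CPM of the sum in C1 and 11.9 CPM in H1, was lower by less than 2-fold (-0.71, adjusted p = 0.018), and Hdc was decreased (-2.15, lost without C3, H1 or H5). Mcpt1, the most abundant protease gene of the list, was at 1.43, 14.6 and 7.02 CPM in control mice and at 5.93, 11.3 and 55.9 CPM in deleted mice, highest in H9. Without H9 the values of Cpa3, Mcpt1, Mcpt2 and Mcpt4 were 0.64, 0.17, 0.12 and 0.34, and without C3 Mcpt4 was increased (3.15, adjusted p = 0.031). Without H9 the log2 fold change of Hpgds was 2.30 and that of Alox5 was -3.48.

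The 8 T cell genes summed to 46.3, 141 and 121 CPM in control mice and 32.4, 50.2 and 59.0 CPM in deleted mice. Control C3 had the highest sum, and among the control mice it was also highest in 8 of the 10 tuft markers. Of the 8 T cell genes, Cd3g (-1.68) and Cd8a (-1.32) were decreased and Cd4 (1.62) was increased on the log2 scale. The log2 fold change was below 0 in 6 of the 8 and above 0 in 2, with a median of -0.90. Over all genes, 12.7% were decreased and 12.4% increased, which holds beside the other lists here too. The calls of Cd3g and Cd8a were lost without C3, C3-3, H1 or H5 (Cd8a also without H9), and that of Cd4 without H9. In the other lists, Csf1r was increased (1.75) and Cd14 decreased (-2.01) of 8 macrophage and neutrophil genes, Gp9 was increased (3.24) of 2 megakaryocyte genes, Cd79b (4.84) of 4 B and plasma cell genes and Pdgfrb (3.00) of 7 stromal genes, and edgeR and DESeq2 made 0 calls for the 1 eosinophil gene and the 7 epithelial genes tested, of which 0 and 4 had an unadjusted p under 0.05. Gp9 had 3, 2 and 3 counts in control mice and 39, 13 and 29 counts in deleted mice. It reached the filter's level in deleted libraries alone, so it was tested only because it was high there. The part of other cell types in the tuft marker values was not tested beyond these measurements.

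**Figure D3:**
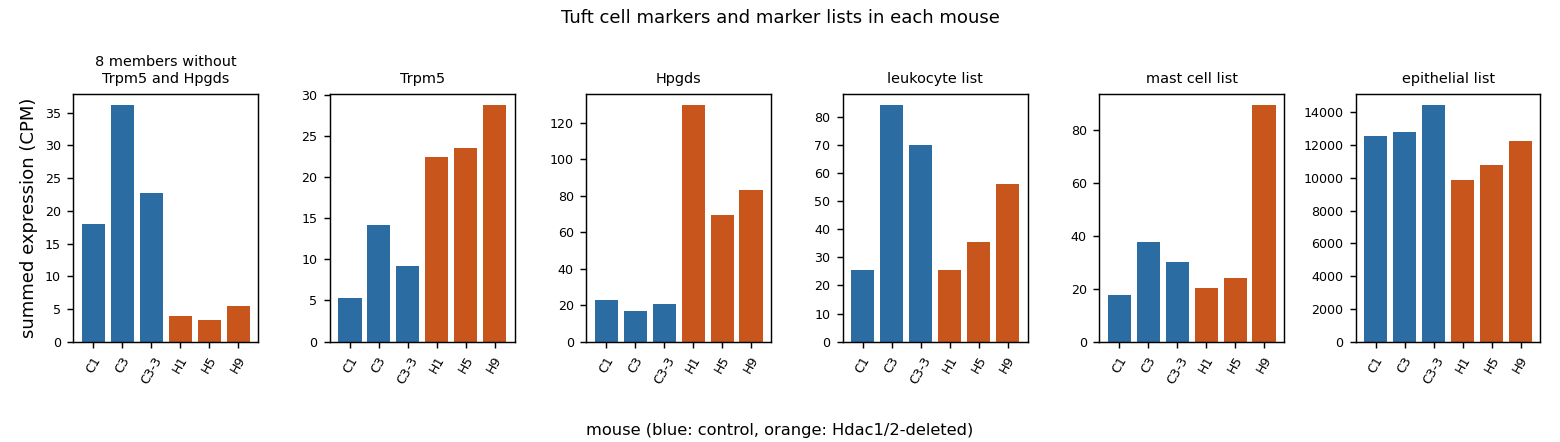
Summed expression (CPM, linear axes from 0, a different scale in each panel) of the 8 tuft markers without Trpm5 and Hpgds, of Trpm5, of Hpgds and of 3 marker lists, 1 bar per mouse with control mice in blue and Hdac1/2-deleted mice in orange. The 8 markers are at 3.24 to 5.51 CPM in deleted mice and 18.1 to 36.1 CPM in control mice, while leukocyte sums overlap between the groups and the mast cell sum is highest in H9.

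The nearest tested genes on each side are given for Hpgds and Trpm5, the increased markers, and for Dclk1, lowest with all mice included. Those of the other markers were also read, and some were called, but they are not given here. Beside Hpgds, Smarcad1 lies 1.2 kb away and had a log2 fold change of -0.03, RP23-263D5.5 lies 6.1 kb away on the other side (-0.27, adjusted p = 0.75), and Atoh1, the secretory lineage factor, lies 386 kb away (-0.81, adjusted p = 0.026, under 2-fold). Beside Trpm5, Cd81 lies 1.2 kb away (0.20, adjusted p = 0.27) and Kcnq1 lies 11.7 kb away (-0.64, adjusted p = 0.032, under 2-fold), and neither was called. Further out, R74862 (15.5 kb, log2 fold change 3.54) and the long non-coding Kcnq1ot1, antisense to Kcnq1 (108.8 kb, 3.59, from 0.0950 to 1.16 CPM) were increased. Kcnq1ot1 was near the floor in control mice, so it was tested mainly because it was high in deleted mice. Beside Dclk1, Spg20 lies 105 kb away and was decreased (-1.53), while Nbea on the other side lies 86.1 kb away (-0.09).

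**Figure D4:**
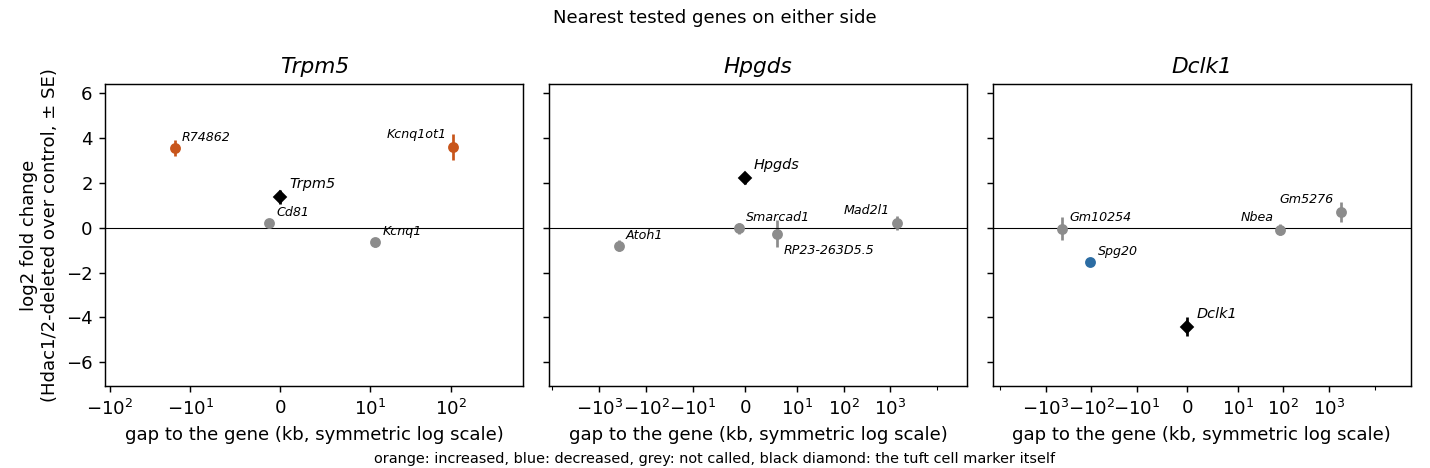
Log2 fold change (± standard error) of Trpm5, Hpgds and Dclk1 (black diamonds) and of the 2 nearest tested genes on each side, against the gap between the genes in kb on a symmetric log axis. Orange genes were increased, blue genes decreased and grey genes not called; the nearest neighbour of each of Trpm5 and Hpgds, 1.2 kb away, is near 0.

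Across the 6 mice, the genes outside the tuft list most like the mean log2 CPM of the 9 tested markers were the fatty acid oxidation genes Hadh (Pearson r = 0.997) and Ech1 (0.996), and Plekhf1 (0.995), Mtmr4 (0.995) and Ces2c (0.994). With only 6 points that share the group difference, 1349 of 11041 genes compared had an r over 0.9, and these values are a description. That mean joins 7 lower and 2 higher markers. Against the mean of the 7 lower ones, a reference chosen after their values were seen, the 5 most like genes were Spg20, Prrc1, Sp5, Tsku and Acadvl (r from 0.997 to 0.999), none of them among the first 5, and 1641 genes had an r over 0.9.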

How the data were processed

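RNA integrity was over 6.5, and libraries were made from poly(A) RNA with a directional kit. The authors deposited raw counts of reads per gene, without normalization, beside scaled values and their own fold changes and p-values, which were not used. The paper's methods give STAR and GRCm38, whereas the submitters' processing notes list STAR 2.4.0f1, bcl2fastq 1.8.4 and mm9. The counting program, its strand setting and its annotation are not given in the sources used here.

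Raw counts were filtered with filterByExpr, which left 15618 of 19616 genes, scaled by TMM and tested with edgeR 4.0.16's robust quasi-likelihood test without covariates, at prior count 0.125 (limma 3.58.1, R 4.3.3). DESeq2 1.42.0 served as an alternative and matplotlib 3.10.9 drew the plots. Benjamini-Hochberg adjustment covered every tested gene, and a call required an adjusted p up to 0.05 with a 2-fold difference or more. The scripts were tested on simulated data. Each library is 1 mouse, so the test sets the group difference against the variation between mice, with 3 mice per group. TMM factors were 0.892 to 1.14. Positions, exon lengths and overlaps are from GENCODE M21 (GRCm38), which held 19532 of the genes.

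The 10 markers and all lists were chosen with earlier results of these data known. Named were all 10 markers, called genes of the tuft list with 10 of its genes called or not, up to 4 called genes of other lists, all measured type 2 genes, the 5 genes most like the markers (mean log2 CPM from 1 upwards), and neighbours within the plots. The neighbours, Il13ra1, 1810046K07Rik, Epcam, Krt20, Kit, Cpa3 and the Mcpt genes were chosen after their values were seen. Alternatives changed scaling, test, filter, robust option, prior count, fold rule and adjusted p limit, and left out each mouse. The proteome and the other assays were not analysed here. The values of 1 gene of the tuft list enter the counts but are not reported here.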

Additional observations from a re-analysis of the deposited data

How the results depend on the processing

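Dclk1, Trpm5, Pou2f3, Avil, Sh2d6 and Hpgds kept their direction and their call in all 12 alternatives in which a log2 fold change was fitted with the same call rule. No tested marker changed sign. With glmTreat, which tests against a 2-fold change rather than 0, the increased markers numbered 1, the decreased markers 3, the increased genes of the tuft list 3, and all increased and decreased genes 1071 and 882. At an adjusted p of at most 0.01, 2 markers were increased and 4 decreased. Leaving out 1 mouse gave 4 to 7 decreased markers, lowest without C3 or H1, with 2 increased each time, and 21 to 29 decreased with 6 to 7 increased genes of the list. Scaling by library totals moved the median log2 fold change of all genes to 0.18 and the calls over all genes to 2463 increased and 1538 decreased, against 1944 and 1990, while 2 markers were increased and 6 decreased as before, and the tuft list's median was -0.87. That median ranged from -1.42 without H9 to -0.86 without H1. For single genes other than the markers these alternatives were added after seeing the data. Spib reversed to 0.19 with library totals and ranged from -0.25 to 0.36 with 1 mouse left out (positive without C3 or H9), and Hdac2 to 0.0069 with library totals. The filter on low counts and the depth limit Il25, Chat, Gnat3 and Gng13. No paired analysis was possible because the groups share mouse number 1 only (C1 and H1), and nothing says that it pairs them.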
